A study of Mus musculus with 18 samples.

Results

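The genes described here are 9 genes of sugar handling in the gut wall, read from RNA sequencing of mouse ileum: *Mlxipl*, which encodes the sugar-sensing transcription factor ChREBP, the sugar transporters *Slc5a1*, *Slc2a5* and *Slc2a2*, the disaccharidase *Sis*, the fructose kinase *Khk*, and the gluconeogenic enzymes *Pck1*, *Fbp1* and *G6pc*. They were found by gene symbol, 9 of 55487 genes in the count files, and all 9 passed the filter on low values. They were chosen by pathway with genotype differences in CPM of these same libraries in view, so the genotype differences given for them are a description, and no test of them stands as support.

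The 18 libraries came from whole-thickness ileum of 18 littermate C57BL6/J mice on chow, with 1 library per mouse. The IEC-*Ppara* mice carried CAG-*Ppara*,-*EGFP*, a cassette at the *Col1a1* safe harbor that Cre inverts into its expressed orientation, together with *Villin-CreERT2*, whose tamoxifen-activated Cre is made in the intestinal epithelium. There were 6 heterozygous and 6 homozygous IEC-*Ppara* mice (2 females and 4 males in each) and 6 controls lacking *Villin-CreERT2* (3 females and 3 males). By the study's methods, mice of 8 to 13 weeks received tamoxifen at 100 mg/kg daily for 3 days, controls included, and tissue was taken 2 weeks after the last injection. The control label does not say which transgene dose each control carried, and the controls do not contain Cre, so Cre and *Ppara* cannot be told apart in comparisons with them, while both IEC-*Ppara* genotypes carry it.

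Dietary sucrose is split at the enterocyte brush border by sucrase-isomaltase, glucose enters with sodium through SGLT1 (*Slc5a1*), and fructose enters through GLUT5 (*Slc2a5*). GLUT2 (*Slc2a2*) is best known as the basolateral exit for both sugars, and ketohexokinase (*Khk*) traps fructose inside the cell. ChREBP is activated by sugar metabolites, pairs with MLX and binds carbohydrate response elements made of paired E-boxes, and it is known to drive fructose transport and breakdown genes in the gut. PPARα, the product of *Ppara*, is a lipid-activated nuclear receptor, and *Pck1* is among the genes that PPAR family members are known to regulate in other tissues.

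The stretch before the transcription start is shown for the members whose window held CACGTG, the E-box that occurs paired in a carbohydrate response element, with the second *Mlxipl* start for comparison. RefSeq windows on GRCm38.p6 were matched by symbol for all 9 genes (10 windows, since *Mlxipl* had 2 starts 17001 bases apart). Each line gives the 250 bases before a start, 5′ to 3′ on the plus strand, with capitals at CACGTG and at GTTAAT, a 6-base site of HNF1 factors.
Mlxipl upstream start, chr5:135089640-135089889: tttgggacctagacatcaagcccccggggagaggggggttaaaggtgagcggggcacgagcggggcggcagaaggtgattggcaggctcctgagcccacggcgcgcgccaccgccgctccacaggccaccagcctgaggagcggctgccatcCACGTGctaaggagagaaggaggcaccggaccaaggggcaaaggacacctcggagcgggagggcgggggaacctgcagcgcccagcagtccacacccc
Mlxipl downstream start, chr5:135106641-135106890: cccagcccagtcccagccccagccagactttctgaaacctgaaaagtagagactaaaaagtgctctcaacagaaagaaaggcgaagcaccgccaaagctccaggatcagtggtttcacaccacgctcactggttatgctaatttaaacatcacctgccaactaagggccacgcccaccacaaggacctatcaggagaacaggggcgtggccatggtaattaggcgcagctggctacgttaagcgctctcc
Khk, chr5:30921309-30921558: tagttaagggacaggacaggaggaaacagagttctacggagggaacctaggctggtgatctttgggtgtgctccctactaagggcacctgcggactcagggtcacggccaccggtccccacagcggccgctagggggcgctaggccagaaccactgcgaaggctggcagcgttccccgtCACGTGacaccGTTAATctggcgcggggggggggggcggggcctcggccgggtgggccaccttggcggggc
Slc5a1, chr5:33103969-33104218: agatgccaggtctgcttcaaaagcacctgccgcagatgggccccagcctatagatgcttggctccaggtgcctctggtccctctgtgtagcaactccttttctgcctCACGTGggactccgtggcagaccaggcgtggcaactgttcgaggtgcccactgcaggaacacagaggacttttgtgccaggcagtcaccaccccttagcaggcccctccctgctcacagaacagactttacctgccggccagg
CACGTG lay at -98 from the upstream *Mlxipl* start, -71 from the *Khk* start and -143 from the *Slc5a1* start, counted to its first base. Counts are per gene and pool both *Mlxipl* starts, so which start was in use was not resolved. The span of *Khk* in the count files begins before the RefSeq start used for its window, so the *Khk* match lies inside the counted gene and not upstream of it. It was present in 3 of the 10 member windows of 300 bases (250 before to 50 after the start), and 7.15% of all 32851 windows of that length held it on either strand. The carbohydrate response element as 2 copies of CACGTG spaced by 5 bases was in 0 of all 32851 windows. A search for this exact form therefore could not tell the members from other genes. GTTAAT, searched on both strands, was in the windows of *G6pc*, *Khk*, *Pck1* and *Sis* and in 7.1% of all windows. AGGTCA, a nuclear receptor site, was in those of *G6pc* and *Slc2a2* and in 16.3% of all, while its direct repeat spaced by 1 base, the PPAR-RXR element, was in 0 member windows and 0.0396% of all. A match of letters is not a binding site, and the absence of a match says only that these letters are not in this window.

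Counts on genes summed to 38528522 to 50376371 per library. *Ppara* itself had a mean of 38.1 CPM (counts scaled to the library total) in controls, 141 CPM in heterozygous and 216 CPM in homozygous mice, and neither IEC-*Ppara* group overlapped the controls. The heterozygous (107 to 196 CPM) and homozygous (184 to 279 CPM) ranges overlapped. Their fitted log2 difference was 0.59 (95% interval 0.23 to 0.95), with an unadjusted p of 0.00303 and an adjusted p of 0.485 by edgeR. So *Ppara* checks the labels against control. Between the IEC-*Ppara* genotypes *Ppara* was higher on average in homozygous mice, but it does not by itself place every single library. Its adjusted p was 2.06e-07 for homozygous and 8.43e-06 for heterozygous against control in edgeR's quasi-likelihood test. The tissue label fitted its ileal markers: the bile acid genes *Fabp6* (4269 CPM in controls) and *Slc10a2* (522 CPM) were high. Of the proximal gut markers *Pdx1* was at 0.05 CPM, while *Slc40a1* spanned 51.4 to 99.7 CPM and *Cybrd1* 11.4 to 21.8 CPM over all libraries. Libraries differed in the non-epithelial wall they held. The summed level of 10 smooth muscle markers spanned 505 to 5755 CPM in the control group, 637 to 4202 CPM among heterozygotes and 3905 to 9099 CPM among homozygotes, and all 10 markers had their highest group mean in homozygous and their lowest in heterozygous mice. B cell markers were high in control 2, control 3, heterozygous 2 and homozygous 1. In such bulk tissue fewer cells of a type and less RNA per cell cannot be told apart.

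Compared per length, the 9 genes ran from among the most abundant of the tested genes to levels above only 25.8% of them. In controls *Sis* stood at 251 FPKM ± 82.8 (SD, n = 6) and *Slc5a1* at 240 FPKM ± 64.1, above 98.8% and 98.7% of the tested genes. *Khk* followed at 66.1 FPKM ± 7.88 and *Mlxipl* at 39.6 FPKM ± 4.90. *Slc2a5* (16.7 FPKM), *Fbp1* (15.9 FPKM) and *Pck1* (11.4 FPKM) came next, and *Slc2a2* (3.63 FPKM) and *G6pc* (2.55 FPKM) were lowest. The ranges of neighbours in this order overlapped between *Sis* and *Slc5a1*, *Slc2a5* and *Fbp1*, *Fbp1* and *Pck1*, and *Slc2a2* and *G6pc*. Within single control libraries *Sis* was above *Slc5a1* in 5 of 6, *Slc2a5* above *Fbp1* in 2, *Fbp1* above *Pck1* in 5 and *Slc2a2* above *G6pc* in 4, so none of these orders held in every mouse. Mice of 1 genotype differed more in most of these genes than in the typical gene: the within-genotype SD of log2 CPM was above that of 88.3% to 97.8% of tested genes for 7 members, and near the middle for *Mlxipl* (52.7%) and *Khk* (61.5%).

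**Figure D1:**
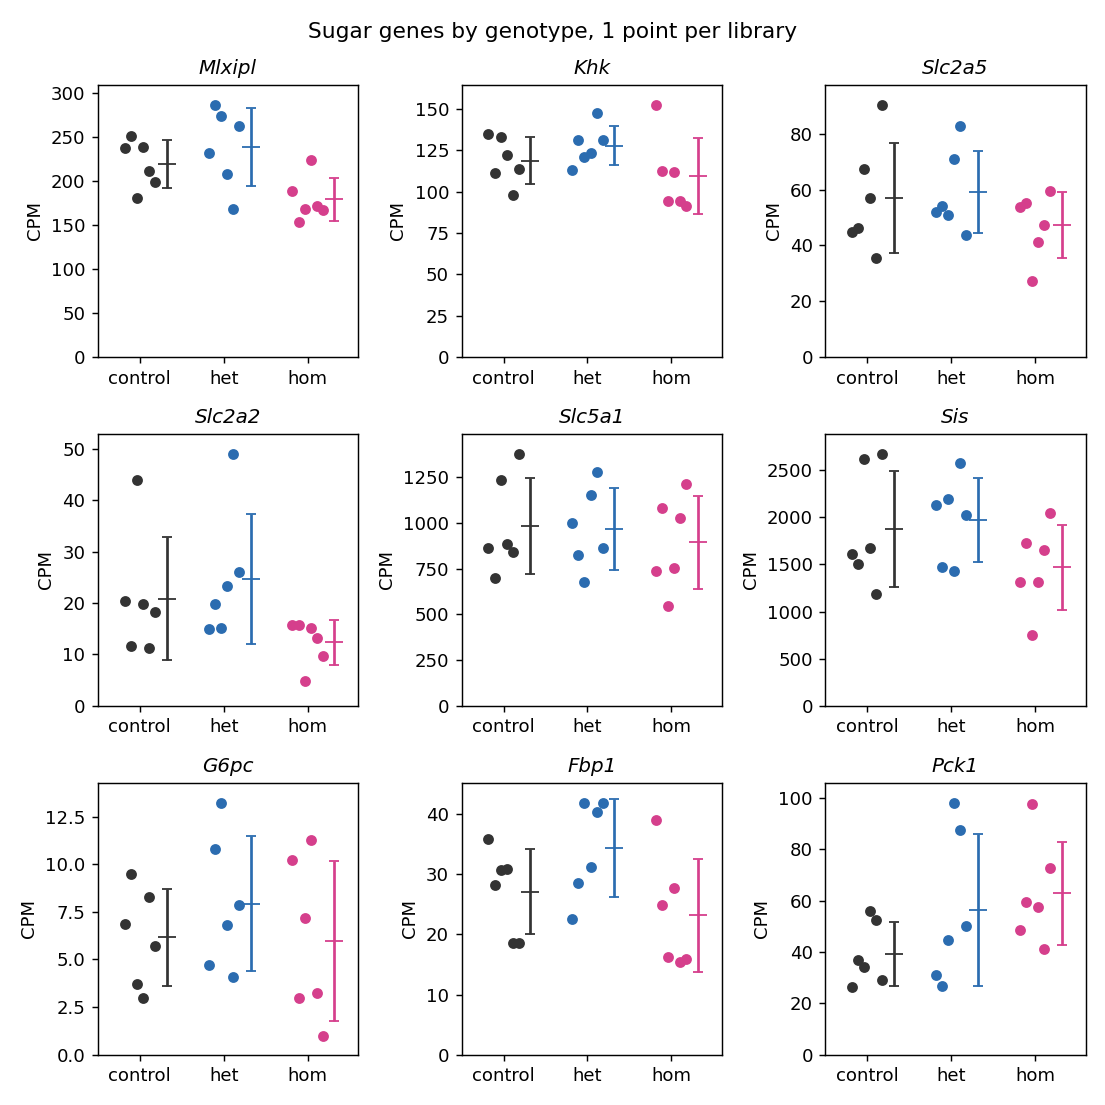
Expression of the 9 genes in CPM (y axis, linear from 0) in control, heterozygous (het) and homozygous (hom) libraries, 1 point per library in replicate order, with the mean and SD (n = 6) at the right of each group. In every panel the groups overlap, and the homozygous points of *Mlxipl* sit low apart from 1 library at 224 CPM.

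Across the 3 genotypes the means of 7 of these 9 genes were highest in heterozygous and lowest in homozygous mice. The exceptions were *Slc5a1*, whose control mean was highest, and *Pck1*. The share of all tested genes with this order was not counted, so the count only describes these genes, which were chosen with genotype differences in view. The 10 smooth muscle markers had the opposite order of means, and their part in this order was not tested beyond the fits with their score as a covariate. In homozygous against control mice 8 of 9 genes had a fitted difference below 0 (51.9% of all tested genes did), with *Pck1* the exception, and in homozygous against heterozygous mice the count was again 8 (50.1% of all). In heterozygous against control mice 1 of 9 did, *Slc5a1* (52.5% of all). None of the 9 passed an adjusted p under 0.05 in any comparison of genotypes in edgeR's quasi-likelihood test. Of all tested genes, 0.411% passed between homozygotes and controls, 0.293% between heterozygotes and controls and 0.00791% between the IEC-*Ppara* genotypes. At an unadjusted p under 0.05 the members passing, in the same order, were 2 of 9 (8.06% of all), 0 of 9 (5.29%) and 3 of 9 (7.61%). DESeq2 and limma-voom also gave 0 adjusted calls among them, and in no comparison did any member separate the groups without overlap (0.854%, 0.467% and 0.269% of all tested genes did). The comparisons share libraries, so their values are not independent of each other.

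**Figure D2:**
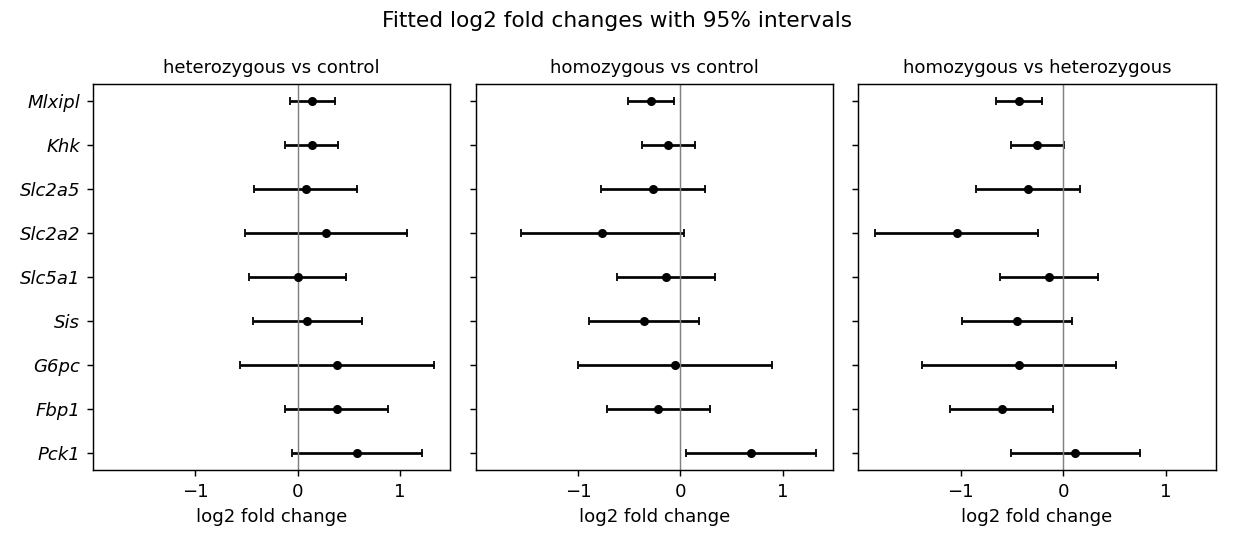
Fitted log2 fold changes (x axis) of the 9 genes (y axis) from edgeR in the 3 genotype comparisons, with 95% intervals as bars. For homozygous against heterozygous the intervals of *Mlxipl*, *Slc2a2* and *Fbp1* lie below 0, and for homozygous against control that of *Mlxipl* lies below 0 and that of *Pck1* above it.

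*Mlxipl* (ENSMUSG00000005373, chr5:135089890-135138382 of GRCm38, plus strand) spanned 180 to 251 CPM (median 224) in the control group, 168 to 286 CPM (median 247) among heterozygotes and 154 to 224 CPM (median 170) among homozygotes. Of the homozygous libraries 5 lay at or under 188 CPM and only homozygous 4 reached 224 CPM, while heterozygous 5 was the low library of its group at 168 CPM. The fitted log2 difference was -0.43 (SE 0.11) for homozygous against heterozygous, -0.29 (SE 0.11) against control and 0.14 (SE 0.11) for heterozygous against control. The last ran from 0.10 without heterozygous 2 to 0.22 without heterozygous 5. It was 0.08 without the 4 libraries highest in B cell markers. For homozygous against heterozygous the adjusted p of *Mlxipl* was 0.475 by edgeR and 0.0644 by the DESeq2 Wald test. In this comparison it was the 1 member past the study's own threshold, an unadjusted p under 0.001, where 0.166% of all tested genes passed. That threshold was no longer met when heterozygous 1, 2, 3 or 6, or homozygous 1, 2, 3, 5 or 6, was left out, and the log2 difference stayed between -0.50 and -0.39. It was also not met with library size only, 12 libraries only, the replicate block, smooth muscle as a covariate or without the 4 libraries highest in B cell markers. An antisense gene, Gm43500, overlaps the locus at a median of 0.65 CPM, and the counting is not stated to use strand.

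The crypt markers, summed, spanned 780 to 946 CPM in the control group, 614 to 1033 CPM among heterozygotes and 676 to 895 CPM among homozygotes, with 4 of 6 markers lower in the homozygous than in the heterozygous mean. Villus tip markers were at 497 to 761, 483 to 970 and 737 to 1002 CPM in the same groups, with 5 of 5 higher in the homozygous mean than in both other means. Of 5 enteroendocrine markers 4 were lower in the homozygous mean than in either other mean. Across the 18 libraries *Mlxipl* had a Pearson's r of 0.62 with the crypt, 0.58 with the enteroendocrine and -0.54 with the villus tip score (0.67, 0.55 and -0.43 with genotype means removed), as a description over libraries that share these tissue differences, and their part in its level was not tested. The largest member of the summed crypt score was *Olfm4*, with means of 394, 365 and 292 CPM in control, heterozygous and homozygous mice. *Lgr5* had 31.8, 31.9 and 31.0 CPM. The r with the crypt score is therefore not separate from a likeness to *Olfm4*. The 5 genes most like *Mlxipl* in log2 CPM over the 18 libraries, out of 12636 ranked, were *Lrrc66* (r = 0.88), *Olfm4* (r = 0.87), a crypt stem cell marker and member of the crypt list, *Zfp598* (r = 0.86), *Dedd* (r = 0.86) and *Abcc10* (r = 0.86). With the genotype means removed, 2 of these 5 were again in the top 5.

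*Khk* (ENSMUSG00000029162, chr5:30921431-30931248) spanned 97.7 to 135 CPM (median 118) in the control group, 113 to 148 CPM (median 127) among heterozygotes and 91.0 to 152 CPM (median 103) among homozygotes. Homozygous 1 held the highest value of all libraries at 152 CPM, while the other 5 homozygous libraries lay at 112 CPM or below. The log2 difference for homozygous against heterozygous was -0.25 (SE 0.12), and it ran from -0.37 without homozygous 1 to -0.19 without heterozygous 5. *Tkfc*, the triokinase of fructose breakdown, had means of 223 CPM ± 33.7 (SD, n = 6) in controls, 250.3 CPM ± 26.8 in heterozygous and 200.5 CPM ± 24.5 in homozygous mice. *Glyctk*, a glycerate kinase, had 3.87 CPM ± 0.45, 4.17 CPM ± 0.35 and 3.45 CPM ± 0.80. For both enzymes the mean was highest in heterozygous and lowest in homozygous mice. The 4 fructose breakdown genes reported here (*Khk*, *Tkfc*, *Glyctk* and *Sord*) were fitted lower in homozygous than in heterozygous mice, with a median log2 difference of -0.29 against 0.00 over all tested genes, and none passed the adjusted threshold.

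The fructose transporter *Slc2a5* (ENSMUSG00000028976, chr4:150119283-150144169) spanned 35.6 to 90.3 CPM in the control group, 43.8 to 82.7 CPM among heterozygotes and 27.3 to 59.4 CPM among homozygotes. The highest library was control 6 and the lowest homozygous 3, which were also the libraries lowest and highest in smooth muscle markers. Its log2 difference for homozygous against control was -0.27 (SE 0.24), and it became -0.05 without control 6 and -0.00389 with the smooth muscle score as a covariate, an alternative chosen after seeing the data. The glucose transporter *Slc5a1* (ENSMUSG00000011034, chr5:33104219-33162870) spanned 699 to 1378 CPM in the control group, 679 to 1280 CPM among heterozygotes and 548 to 1213 CPM among homozygotes, with the same libraries at the extremes. Its log2 difference for homozygous against control was -0.14 (95% interval -0.62 to 0.34). The sign of its differences from controls changed between settings. Pseudogenes Gm15936 and 5033423K11Rik lie inside the gene at medians of 0.82 and 0.51 CPM.

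*Slc2a2* (ENSMUSG00000027690, chr3:28697903-28731359) had the widest fitted difference of the 9. It was at 20.4, 11.7, 43.8, 19.8, 11.2 and 18.3 CPM in controls 1 to 6, at 14.9, 19.8, 15.2, 23.3, 49.0 and 26.1 CPM in heterozygous 1 to 6 and at 15.7, 15.6, 4.78, 15.1, 13.1 and 9.70 CPM in homozygous 1 to 6. Control 3 and heterozygous 5 stood far above the rest of their groups, and no homozygous library exceeded 15.7 CPM. The log2 difference was -1.04 (SE 0.38) for homozygous against heterozygous, with an adjusted p of 0.621 by edgeR, and -0.76 (SE 0.38) against control. It became -0.69 without heterozygous 5 for the first comparison, no longer at an unadjusted p under 0.05, and -0.39 without control 3 for the second. The wider transporter list, these 3 members included, showed no common direction: 16 of 18 genes were tested, 9 were fitted lower and 7 higher in homozygous than in heterozygous mice, and none passed the adjusted threshold.

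*Sis* (ENSMUSG00000027790, chr3:72888557-72967863, minus strand) spanned 1187 to 2673 CPM in the control group, 1426 to 2576 CPM among heterozygotes and 751 to 2050 CPM among homozygotes. The lowest library was again homozygous 3. Its log2 difference was -0.45 (SE 0.25) for homozygous against heterozygous and -0.36 (SE 0.25) against control. The difference from control was -0.19 without control 6, and with the smooth muscle score as a covariate the differences were -0.20 against heterozygous and -0.08 against control mice. *Mgam*, the brush border maltase that shares starch digestion with it, had means of 3164 CPM ± 721 in controls, 3232 CPM ± 637 in heterozygous and 3064 CPM ± 917 in homozygous mice, which differed by less than their spread.

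Among the gluconeogenic enzymes *Pck1* (ENSMUSG00000027513, chr2:173153048-173159273), which makes phosphoenolpyruvate from oxaloacetate, was the 1 member fitted higher in homozygous than in control mice. It was at 26.5, 36.9, 34.0, 56.0, 52.6 and 29.3 CPM in controls 1 to 6, at 31.0, 26.8, 44.6, 98.1, 87.4 and 50.1 CPM in heterozygous 1 to 6 and at 48.7, 59.5, 97.5, 57.5, 41.3 and 72.8 CPM in homozygous 1 to 6. All homozygous libraries exceeded the control median of 35.5 CPM, and the groups overlapped. The log2 difference from control was 0.69 (SE 0.30) in homozygous mice, with an adjusted p of 0.587 by edgeR, and 0.58 (SE 0.30) in heterozygous mice, which became 0.36 without heterozygous 4 and 0.39 with sex as a covariate. The homozygous difference was 0.53 with the smooth muscle score as a covariate and 0.69 without the 4 libraries highest in B cell markers, both chosen after seeing the data, and it ran from 0.54 to 0.80 when single libraries were left out. An unadjusted p under 0.05 was not reached in either setting, nor without control 1, 2, 3 or 6 or homozygous 3 or 6. *Pck1* had a Pearson's r of -0.65 with T cell, -0.64 with crypt and 0.59 with villus tip scores over the 18 libraries. With genotype means removed these were -0.51, -0.57 and 0.44. T cell markers, summed, had medians of 44.7 CPM in controls, 27.8 CPM in heterozygous and 27.0 CPM in homozygous mice. All 6 were lower in both IEC-*Ppara* means than in controls. The part of these markers in the *Pck1* level was not tested.

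Sex was not used to choose the genes, so it gives a comparison apart from that choice. It is not fully independent of genotype, since it rests on the same libraries. Females were 3 of 6 controls and 2 of 6 in each IEC-*Ppara* genotype. In a fit with genotype as a covariate, 0 of 9 members passed the adjusted threshold for female against male mice (0.0554% of all tested genes did, by edgeR) and 1 of 9 had an unadjusted p under 0.05 (3.39% of all). That gene was *Pck1*, fitted at -0.58 (SE 0.24) on the log2 scale in females, with an adjusted p of 0.998 by edgeR. It became -0.44 without heterozygous 2, and an unadjusted p under 0.05 was no longer reached without heterozygous 1 or 2 or homozygous 5. In heterozygous mice the 2 females were at 26.8 and 31.0 CPM and the 4 males at 44.6 CPM or more, while in controls and in homozygous mice the sexes overlapped. With sex as a covariate the difference of homozygous from control mice was 0.57 on the log2 scale, and an unadjusted p under 0.05 was no longer reached.

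*Fbp1* (ENSMUSG00000069805, chr13:62864753-62888282, minus strand), which removes a phosphate from fructose 1,6-bisphosphate, spanned 18.5 to 35.9 CPM (median 29.4) in the control group, 22.6 to 41.9 CPM (median 35.8) among heterozygotes and 15.3 to 39.0 CPM (median 20.6) among homozygotes. As for *Khk*, homozygous 1 was the highest library of its group. The log2 difference was -0.60 (SE 0.24) for homozygous against heterozygous, and ran from -0.81 without homozygous 1 to -0.51 without homozygous 5. Its unadjusted p was no longer under 0.05 without heterozygous 5 or homozygous 3, 5 or 6, nor with smooth muscle as a covariate (-0.55). *G6pc* (ENSMUSG00000078650, chr11:101367561-101377903), the phosphatase that releases free glucose, spanned 2.96 to 9.47 CPM in the control group, 4.08 to 13.2 CPM among heterozygotes and 0.99 to 11.2 CPM among homozygotes, on 46 to 627 counts per library. Its log2 difference for homozygous against control was -0.05 (SE 0.45), and its 95% interval reached 0.89 on the upper side, so differences of that size could not be resolved at this spread.

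Of the genes reported from the wider pathway lists, none passed the adjusted threshold in any of the 3 comparisons. Of 21 tested ChREBP partners and known targets, 18 were fitted lower in homozygous than in heterozygous mice (median log2 difference -0.14) and 15 were fitted below controls in homozygotes (median -0.05), while 18 were fitted above controls in heterozygotes (median 0.14). This list holds 4 of the 9 genes (*Mlxipl*, *Khk*, *Slc2a5* and *G6pc*). It shares genes with the other lists, *Khk* and *Tkfc* with fructose breakdown among them, so the lists are not separate evidence. Of all tested genes, 50.1% were fitted lower in homozygous than in heterozygous mice. The share fitted below controls was 51.9% in homozygotes and 52.5% in heterozygotes. Of 16 gluconeogenesis genes, 13 were fitted lower in homozygous than in heterozygous mice (median -0.17), and of 21 glycolysis genes 10 were (median 0.03). At an unadjusted p under 0.05 in this comparison, 2 genes each of the ChREBP, gluconeogenesis, fructose breakdown and transporter lists were lower, 1 galactose gene was lower, and the glycolysis and regulator lists each had 1 lower and 1 higher, where 3.72% of all tested genes were lower and 3.89% higher. *Tkfc* counts in both the ChREBP and the fructose breakdown list. At the same p, the ChREBP list had 2 genes higher (*Me1* and *Klf10*) and 1 lower (*Mlxipl*) in homozygous than in control mice, and glycolysis had 3 higher, gluconeogenesis 1 (*Pck1*) and the regulators 1 (*Creb3l3*), where 4.03% of all tested genes were higher and 4.03% lower. In heterozygous against control mice the ChREBP list had 3 higher (*Me1*, *Klf10* and *Txnip*), the disaccharidases, glycolysis, gluconeogenesis and regulator lists 1 each, and no list gene was lower, where 2.76% of all were higher and 2.53% lower. In homozygous against heterozygous mice 8 of 14 transcriptional regulators of sugar genes were fitted lower (median -0.05), and 5 of 5 galactose genes were (median -0.08). *Me1*, the malic enzyme, had the widest difference from control in the ChREBP list, at 18.4 CPM ± 8.41 (SD, n = 6) in controls, 40.4 CPM ± 28.7 in heterozygous and 37.8 CPM ± 12.9 in homozygous mice, with an adjusted p of 0.407 for homozygous against control by edgeR. *Thrsp*, a lipogenic ChREBP target, was at 10.4 CPM ± 13.0, 15.0 CPM ± 20.3 and 9.68 CPM ± 8.34. *Creb3l3*, a membrane-bound factor of fasting metabolism, was at 125 CPM ± 30.4 in controls, 225 CPM ± 57.3 in heterozygous and 199 CPM ± 31.5 in homozygous mice, with an adjusted p of 0.0692 by edgeR for heterozygous against control. Among other listed genes, *Galm* of galactose breakdown was fitted at -0.28 (SE 0.08) for homozygous against heterozygous, and *Ldhb* and *Cebpb* at 0.66 (SE 0.54) and 0.62 (SE 0.25) for homozygous against heterozygous, where *Ldhb* turned to -0.34 with smooth muscle as a covariate.

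**Figure D3:**
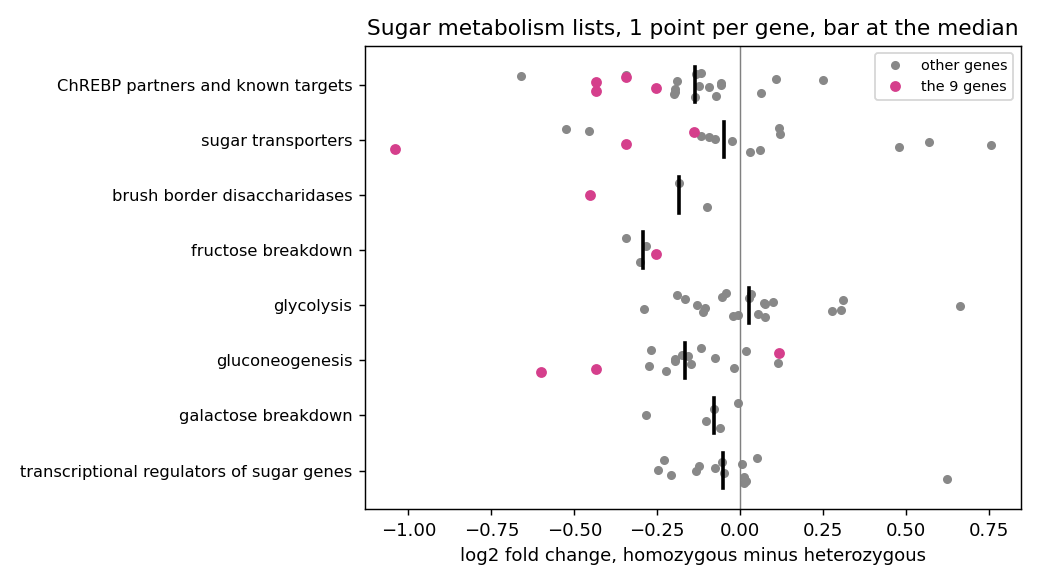
Fitted log2 fold change of homozygous minus heterozygous mice (x axis) for each tested gene of 8 sugar metabolism lists (y axis), 1 point per gene, the 9 genes in pink, with a bar at the list median. The fructose breakdown points all lie below 0 with a median of -0.29, and the glycolysis median lies at 0.03.

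With genotype means removed, 5 of the 36 pairs had a Pearson's r above 0.7: *Slc2a5* with *Slc5a1* (0.86), *Slc2a5* with *Sis* (0.79), *Slc5a1* with *Sis* (0.78), *Khk* with *Fbp1* (0.83) and *Khk* with *Slc2a2* (0.76). *Slc2a2* was close to that value also with *Slc2a5* (0.68), *Slc5a1* (0.64) and *Sis* (0.64), so these genes do not part into separate sets. *Mlxipl* was not positively related to the fructose genes, at -0.11 with *Khk* and -0.45 with *Slc2a5*, and was at -0.60 with *Slc5a1*, -0.59 with *Pck1* and 0.54 with *G6pc*. The lowest r of any pair was -0.68, between *Slc5a1* and *G6pc*. These are descriptions over 18 libraries of unlike tissue makeup. Before genotype means were removed, *Slc5a1* had r = 0.85 with the enterocyte markers, *Sis* had r = -0.82 with the fibroblast markers and *Khk* had r = 0.75 with the distal intestine markers. The largest members of these summed scores were *Anpep* (10374 CPM in controls), *Col3a1* (935 CPM) and *Fabp6* (4269 CPM), in the same order, and they weigh most in these r values. The distal intestine markers, summed, spanned 4672 to 7305 CPM in the control group, 4930 to 6389 CPM among heterozygotes and 3588 to 6178 CPM among homozygotes, with 4 of 5 lower in the homozygous mean, and fibroblast markers from 1338 to 3631, 1084 to 2534 and 1940 to 4333 CPM, with 6 of 6 higher in it. Their part in the differences between genotypes was not tested.

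**Figure D4:**
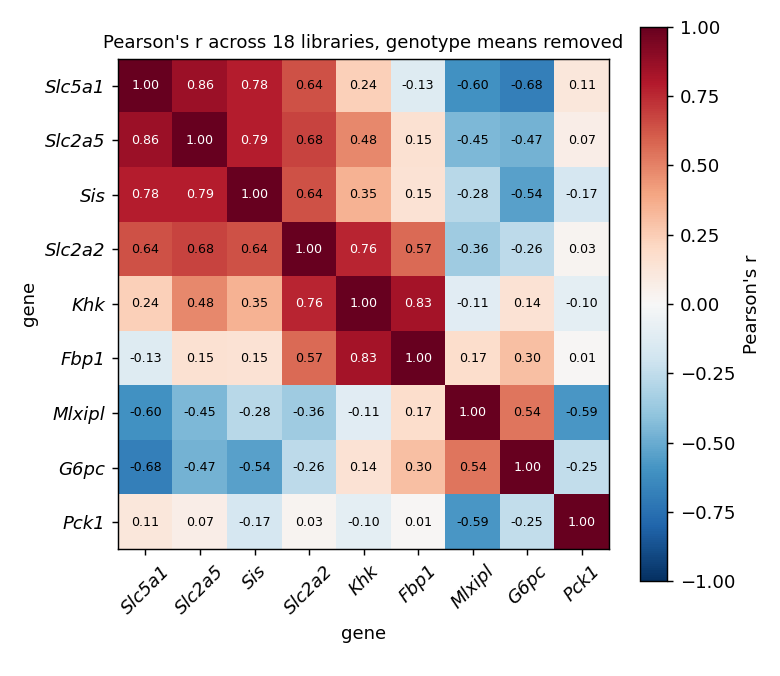
Pearson's r between each pair of the 9 genes (both axes) across 18 libraries in log2 CPM after removal of each genotype's mean, from -1 (blue) to 1 (red). *Slc5a1*, *Slc2a5* and *Sis* are related at 0.78 to 0.86, *Khk* joins *Fbp1* at 0.83, and *Mlxipl* is at -0.60 with *Slc5a1*.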

How the data were processed

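Whole-thickness ileum of 18 mice was sequenced with 1 library per mouse. Per the labels and the study's methods, poly-A RNA was sequenced in paired reads, which the authors mapped to GRCm38 with STAR, and they counted unique, unambiguous reads per gene with featureCounts, and the counts were deposited without normalization. The deposited CPM values are these counts over the total of each library, and the deposited FPKM values divide them also by gene length. Levels are given in CPM, and genes are compared with each other only in FPKM.

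Genes above 3 CPM in at least 4 libraries were kept (13709), and the 12645 protein-coding ones were fitted in edgeR 4.0.16 (R 4.3.3, TMM, quasi-likelihood test, all 18 libraries, no covariates), with Benjamini-Hochberg adjustment over all of them at 0.05. The filter is the one the study's methods state, but it left more genes here than they give, so shares and adjusted p-values rest on a larger set. Totals of 38528522 to 50376371 counts leave 3 counts equal to under 0.08 CPM, so spread between mice, not counting, limits precision. Correlations were taken on the log2 CPM scale (prior count 2). Marker scores in the correlations were the log2 of the summed CPM of a list, so its most abundant markers weighed most. The pipeline was tested on simulated data. Alternatives were DESeq2 1.42.0, limma-voom (limma 3.58.1), other scalings and filters, sex as a covariate, a replicate block and leaving out each library. The deposited log2 table was not used.

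The 9 genes, the pathway lists and the marker lists were chosen with earlier results of these data known. Named genes were the 9 members, list genes past an adjusted p of 0.05 or an unadjusted p of 0.001, otherwise the largest log2 difference of each list in homozygous against control and against heterozygous mice, the 5 genes most correlated with *Mlxipl*, and *Ppara*. Genes named beside them as markers or list members were added to describe the tissue. A few list genes were left out of the summaries and are not reported here.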

Additional observations from a re-analysis of the deposited data

Results flagged for a closer look

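In 27 groups of 6 libraries (9 genes in 3 genotypes), 3 held a library far from the other 5 by Dixon's criterion. By chance it flags about 1 in 20 groups when groups are independent and values are normally distributed. The 27 groups reuse the same 18 libraries across correlated genes, in CPM, so the 3 are not read as more than chance. *Khk* was highest in homozygous 1, at 152 CPM. *Slc2a2* was highest in control 3, at 43.8 CPM, and in heterozygous 5, at 49 CPM. Homozygous 1 was also the library of its group highest in *Fbp1*, and in distal intestine markers (6178 CPM against 3588 to 5167 CPM in the other 5). Both homozygous 1 and control 3 were among the 4 libraries highest in B cell markers. The part of these markers in the values was not tested.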

How the results depend on the processing

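No member passed an adjusted p of 0.05 in any alternative. Of 783 recomputed member differences between genotypes, 752 kept their direction and 31 did not. Calls over all genes for homozygous against control numbered 52, and became 136 with DESeq2 and 31 without the 4 libraries highest in B cell markers. For heterozygous against control they numbered 37, and became 82 with DESeq2, 23 with 12 libraries only, 22 with the replicate block and 15 without those 4 libraries. For homozygous against heterozygous the 1 call became 9 with DESeq2 and 0 with DESeq2 size factors, no filter, all biotypes, 12 libraries only, sex or smooth muscle as covariate, the replicate block or without those 4 libraries. It was 0 to 2 when single libraries were left out. *Mlxipl* passed an unadjusted p of 0.001 for homozygous against heterozygous in 9 of 18 leave-one-out fits (0 to 1 members), and in 0 with library size only, 12 libraries only, the replicate block, smooth muscle as covariate or without those 4 libraries. Smooth muscle and B cell settings were chosen after seeing the data. The causes were not tested.

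Same-numbered libraries did not deviate together (correlations -0.61 to 0.64, 9 of 18 over 0.1, 0 best with their own number), so the numbers were not taken as pairs. With the replicate block the *Mlxipl* difference of homozygous from heterozygous mice was -0.43.

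Direction turned mainly where the difference was near 0. *Slc5a1* for heterozygous against control was 0.00145 with DESeq2, 0.00598 with limma-voom, 0.00148 with DESeq2 size factors, 0.00429 with no filter, 0.0103 with all biotypes, 0.0344 with sex, 0.033 with smooth muscle and 0.038 without the 4 libraries. With smooth muscle as covariate *Slc5a1* was 0.0107 and *G6pc* 0.035 for homozygous against control, *Pck1* was -0.0822 for homozygous against heterozygous, and *Ldhb* was -0.213 and -0.344 for these comparisons. *Me1* for homozygous against heterozygous was 0.0813 with limma-voom and 0.0141 with the replicate block. *Thrsp* was 0.348 and 0.0693 for homozygous against control and 0.389 and 0.0998 for homozygous against heterozygous, in the same order.

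Leaving out single libraries gave these ranges of log2 differences that crossed 0. For heterozygous against control they were -0.0561 to 0.297 for *Slc2a5*, -0.0624 to 0.655 for *Slc2a2*, -0.109 to 0.155 for *Slc5a1* and -0.0111 to 0.258 for *Sis*. For homozygous against control they were -0.252 to 0.0168 for *Slc5a1*, -0.329 to 0.169 for *G6pc* and -0.504 to 0.817 for *Thrsp*. For homozygous against heterozygous they were -0.0339 to 0.337 for *Pck1*, -0.275 to 0.301 for *Me1* and -1.09 to 0.0805 for *Thrsp*. For female against male mice they were -0.00681 to 0.0746 for *Mlxipl*, -0.0639 to 0.0396 for *Khk*, -0.0151 to 0.206 for *Slc2a5* and -0.29 to 0.15 for *Slc2a2*.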
